A study of Mus musculus with 6 samples.

Results

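Ferritin and metallothionein RNAs were examined among the RNAs that co-precipitated with LARP1 from mouse dorsal root ganglia (DRG), which hold the cell bodies of sensory neurons. The set was fixed by 5 Ensembl gene identifiers, those of Fth1 (ENSMUSG00000024661), Ftl1 (ENSMUSG00000050708), Mt1 (ENSMUSG00000031765), Mt2 (ENSMUSG00000031762) and Mt3 (ENSMUSG00000031760), and all 5 were found among the 16976 identifiers of the count table, so no member was unmeasured. The animals were wild-type mice, either left uninjured or with a sciatic nerve injury, which cuts or damages the axons of part of these neurons. The labels used here state no strain, age, sex, kind of injury or time after injury. Each group had 3 libraries, made by immunoprecipitation of ganglion lysate with an anti-LARP1 antibody, amplification of the cDNA and nanopore sequencing. The question of the comparison is which RNAs were more or less abundant with LARP1 after injury.

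LARP1 is an RNA-binding protein best known for binding mRNAs that begin with a pyrimidine tract, many of which encode parts of the translation machinery. Ferritin is the protein shell in which cells store iron: Fth1 encodes the heavy chain, which oxidises iron as it enters, and Ftl1 the light chain, which helps the iron core to form. Translation of both ferritin mRNAs is held back in iron-poor cells by iron regulatory proteins that bind a hairpin in the mRNA leader. Metallothioneins are small cysteine-rich proteins that bind zinc and copper. Mt1 and Mt2 are found in many cell types and are induced by metals, glucocorticoids and other stresses, in nervous tissue chiefly in glia, while Mt3 is the form characteristic of the nervous system and responds little to metals. In the RefSeq gene table Fth1 lies on chromosome 19, Ftl1 on chromosome 7 and the metallothioneins together on chromosome 8, where Mt2 and Mt1 are direct neighbours and only a long noncoding RNA gene lies between Mt3 and Mt2. By their symbols, 2 pseudogenes of the heavy chain and 3 of the light chain were found in the same table, and copies under other names were not searched for. Salmon shares reads of similar transcripts out by estimation; how many ferritin reads could belong to such copies was not measured, so the ferritin counts carry that uncertainty.

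Depth and agreement of the libraries set what can be said. The uninjured libraries held 116186 to 116608 counts and the injured libraries 211337 to 211879, so that 1 count is worth 8.58 to 8.61 counts per 1000000 (CPM) in the former and 4.72 to 4.73 CPM in the latter. Among genes that reached 15 counts, replicate libraries varied 1.16 times as much as counting alone gives in the uninjured group and 1.12 times as much in the injured group. Library totals within a group also differed no more than counting alone gives (chi-square p = 0.631 for uninjured and 0.66 for injured). Replicate libraries thus agreed nearly within sampling noise, and each group is treated here as 1 sample. Whether the libraries of a group are separate animals or parts of 1 pool is not stated. All intervals below are 95% exact intervals that cover counting error alone. They may be too narrow even for that, since PCR copies can be counted more than once. No p-value is given for the difference in a gene, and any batch in which a group was prepared cannot be told apart from injury. Values are levels in the precipitate: no total RNA or control precipitate was analysed here. In whole ganglia, more or fewer cells of a type cannot be told apart from more or less RNA per cell. Markers of neurons, glia, macrophages and blood, and other genes of iron, zinc and copper handling, were not analysed here, because their identifiers were not paired with symbols.

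All 5 RNAs were more abundant in the injured precipitate, Mt2 with the largest ratio (6.13-fold) and Mt3 with the smallest (1.39-fold). In each of the 5 the lowest injured library lay above the highest uninjured library, a pattern shown by 28.5% of the 6499 genes with at least 20 counts and by 31.4% of the 3480 genes with at least 50 counts. A ratio of at least 2 was measured for 4 of the 5, against 23.4% of genes with at least 20 counts and 18.4% of those with at least 50. The same 4 passed 1.5-fold, as did 34.6% of genes with at least 20 counts. The median ratio was 2.70-fold over the members and 1.11-fold over the genes with at least 20 counts, of which 56.5% were higher after injury. In edgeR's quasi-likelihood test of the reads, with a Benjamini-Hochberg threshold of 0.05, 24.9% of the 3158 genes tested were called higher in the injured libraries, and the 5 members were among them. That test compares the reads of 2 samples and not the conditions. Its filter on low counts asks for 61.0 CPM in 3 libraries, which Ftl1 and Mt2 reached in no uninjured library and Mt1 in 2, so these 3 genes entered the test through their injured libraries and their calls are given as a description.

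**Figure D1:**
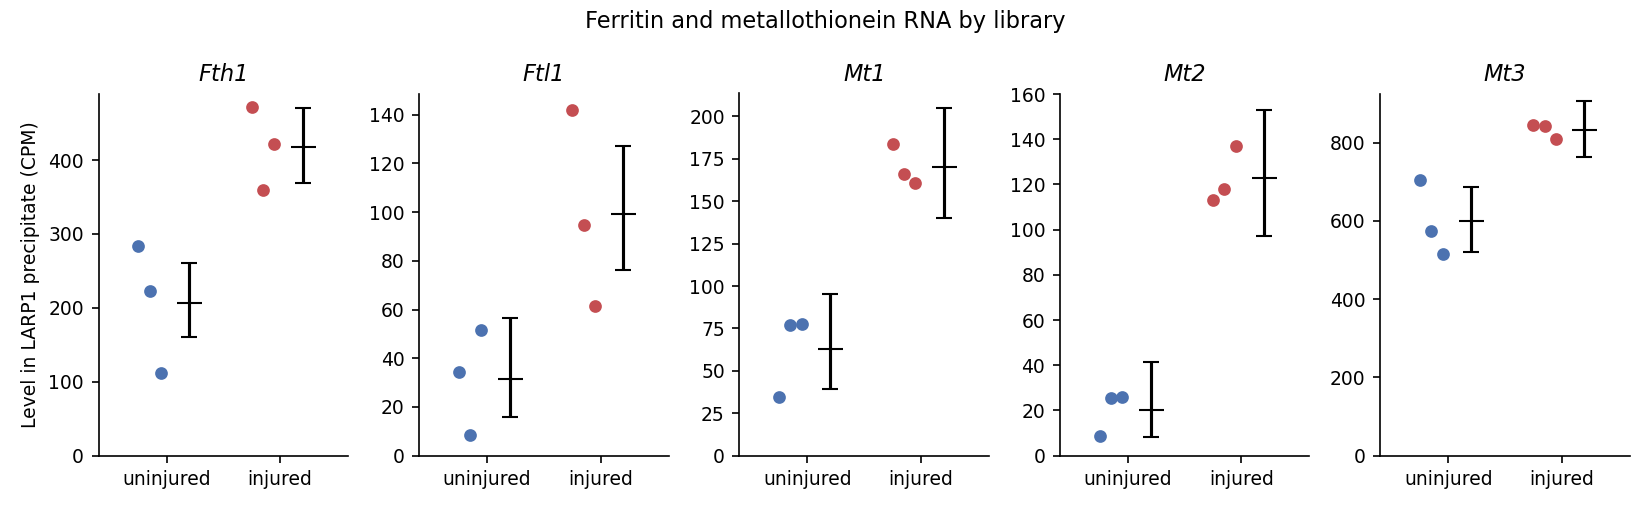
Levels of the 5 RNAs in the LARP1 precipitate, in CPM on linear axes that start at 0 and differ between panels. Points are the 3 libraries of each group, in the order of their replicate numbers, and the black mark with bars is the level of the summed group with its 95% exact Poisson interval; in every panel the injured points lie above the uninjured ones, with the largest relative gap for Mt2 (113 against 25.8 CPM between the nearest libraries).

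Fth1, the heavy chain, had the larger ferritin count. Libraries 1 to 3 of the uninjured group gave 33, 26 and 13 counts and those of the injured group 100, 76 and 89, which is 284, 223 and 112 CPM against 472, 360 and 421 CPM. The third uninjured library was low for this gene, and the nearest libraries of the groups, at 284 and 360 CPM, were 1.27-fold apart. Summed by group, Fth1 stood at 206 CPM (161 to 260) in the uninjured and at 418 CPM (369 to 471) in the injured precipitate, 2.02-fold higher (1.55 to 2.66). That ratio was larger than those of 77.0% of the genes with at least 20 counts. In the uninjured group the 3 libraries spread more than a random division of the counts in an exact multinomial test (p = 0.0104), but not after adjustment over the 10 such tests of members and groups (Benjamini-Hochberg p = 0.104). Without the third uninjured library the ratio of CPM was 1.65, the lowest value found on leaving out 1 library.

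Ftl1, the light chain, had few counts and the wider spread. In the uninjured group 4, 1 and 6 counts were seen, against 30, 20 and 13 after injury, equal to 34.4, 8.58 and 51.6 CPM against 142, 94.6 and 61.5 CPM. The second uninjured library rested on a single count, and the third injured library, at 61.5 CPM, stood only 1.19-fold above the third uninjured one. The summed uninjured level of 31.5 CPM (15.7 to 56.4) compared with 99.3 CPM (76.3 to 127) after injury, 3.15-fold higher (1.65 to 6.63). The interval of Ftl1 includes the ratio of Fth1. edgeR's call for Ftl1 was lost without the second uninjured library, where the ratio of CPM was 2.31, and the filter removed the gene without the first or the second injured library.

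Both ferritin chains together went from 238 CPM (189 to 295) to 517 CPM (462 to 576), a ratio of 2.17 (1.70 to 2.80), and Fth1 made up 75.7% of that difference. A share within a library does not depend on how libraries are scaled. The heavy chain held 86.7% of the ferritin counts without injury (77.5% to 93.2%) and 80.8% with injury (76.1% to 84.9%). Single uninjured libraries gave shares of 89.2%, 96.3% and 68.4%, and injured ones gave 76.9%, 79.2% and 87.3%. The shares overlap between the groups, and the ratio of Ftl1 to Fth1 counts was 1.56 times as high after injury by the counts, with an interval of 0.761 to 3.45 that spans no difference. At this depth no shift between the chains was detectable.

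For the metallothioneins stretches of sequence near the annotated start are shown. Their windows hold matches to the core of the metal response element, the site of the zinc-sensing factor MTF1. Both forms of the core, TGCACNC and TGCGCNC, were searched on both strands in the 300 bases around each gene's annotated start (250 before and 50 after it), taken from RefSeq on GRCm38.p6, a build older than that of the counts. Capitals mark the matches, and each stretch is written 5′ to 3′ on the plus strand, on which all 3 genes lie, and ends with its last match.
Mt1, chr8:94178839-94179115: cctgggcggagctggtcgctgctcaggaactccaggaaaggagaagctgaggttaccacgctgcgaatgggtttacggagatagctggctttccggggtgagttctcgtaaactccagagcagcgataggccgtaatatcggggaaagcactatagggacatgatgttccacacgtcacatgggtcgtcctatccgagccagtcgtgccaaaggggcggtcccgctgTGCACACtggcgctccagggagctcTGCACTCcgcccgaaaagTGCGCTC
Mt2, chr8:94172368-94172628: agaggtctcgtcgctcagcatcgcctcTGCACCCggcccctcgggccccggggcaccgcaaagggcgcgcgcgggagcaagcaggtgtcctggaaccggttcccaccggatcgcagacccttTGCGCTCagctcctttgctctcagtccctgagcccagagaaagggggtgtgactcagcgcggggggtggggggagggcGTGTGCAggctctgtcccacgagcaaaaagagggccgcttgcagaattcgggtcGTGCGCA
Mt3, chr8:94152611-94152640: tcagtggagactcgggacagcagTGCACAC
Mt1 had 3 matches in its window, Mt2 had 4 and Mt3 had 1, none of them overlapping. In Mt1 they began 23 bases before the start and at bases 3 and 21 after it. In Mt2 they began 223, 128 and 50 bases before the start and at base 5 after it, the last 2 on the opposite strand. The match of Mt3 began at base 28 after the start, and the whole stretch shown for Mt3 lies after that start. The 2 windows of Fth1 and the window of Ftl1 had 0 matches. Positions are counted from the start in the table, which was not checked against measured transcript ends. TATAA, a promoter element usually found upstream of the first transcribed base, begins at base 27 after the start in the second Fth1 window and at base 18 after it in that of Ftl1, on the gene's own strand. On either strand, 24.9% of all windows hold these letters, among them the first Fth1 window on the opposite strand, and no metallothionein window does. The annotated starts of the ferritins may therefore lie upstream of the main ones. The start of Mt1 may be off too, since it was not checked, and the TATAA search does not bear on it. The windows may thus miss part of the promoter, and the numbers of matches are not compared between genes. Of the 32851 promoter windows in the table, 25.7% held at least 1 match, 1.97% at least 3 and 0.517% at least 4. A match is a string of letters and not a measured site, and its part in the levels was not tested.

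Mt2 showed the largest ratio of the set. It was close to the detection limit without injury, where its libraries showed 1, 3 and 3 counts, compared with 24, 25 and 29 after injury. In CPM this was 8.60, 25.7 and 25.8 against 113, 118 and 137. The injured libraries were close together and the lowest of them lay 4.39-fold above the highest uninjured one. By group its level was 20.1 CPM (8.06 to 41.3) in the uninjured and 123 CPM (97.2 to 153) in the injured precipitate. That is a ratio of 6.13 (2.84 to 15.7), larger than those of 95.6% of genes with at least 20 counts. The width of the interval reflects the 7 uninjured counts.

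Mt1, the other widely expressed form, was seen with 4, 9 and 9 counts where nerves were uninjured and with 39, 35 and 34 after injury, that is 34.4, 77.2 and 77.5 CPM against 184, 166 and 161 CPM. The first uninjured library was the low one, and the injured libraries were at least 2.08-fold above every uninjured library. Summed, Mt1 was at 63.0 CPM (39.5 to 95.4) in the uninjured precipitate and at 170 CPM (140 to 205) in the injured one, 2.70-fold higher (1.70 to 4.49), a ratio larger than those of 84.5% of genes with at least 20 counts.

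Mt3, the nervous system form, had by far the most counts of the family and the smallest relative difference. Uninjured libraries gave 82, 67 and 60 counts, injured ones 179, 178 and 171, corresponding to 705, 575 and 516 CPM against 845, 842 and 809 CPM. The injured libraries were nearly equal, and the highest uninjured library came within 1.15-fold of them. The summed level was 599 CPM (520 to 686) without injury and 832 CPM (763 to 906) after it, 1.39-fold higher (1.18 to 1.64). That lies above the ratios of 61.4% of genes with at least 20 counts, which is near the middle of the distribution. On the TMM scale of edgeR's test its log2 fold change was 0.40, and its call was lost without the third uninjured library, where the value was 0.29.

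**Figure D2:**
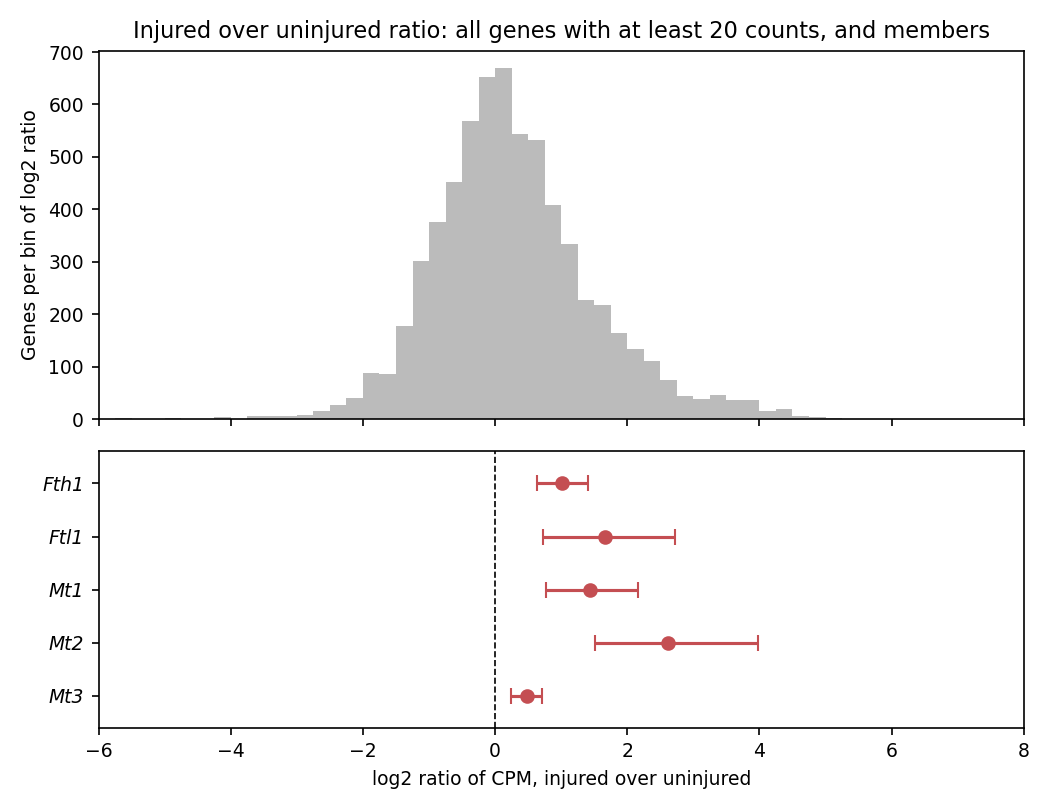
Upper panel: number of genes, among the 6499 with at least 20 counts, in each bin of the log2 ratio of CPM (injured over uninjured), with 3 counts in place of 0 for a group without counts. Lower panel, on the same axis: the 5 members with 95% exact intervals for counting error; Mt3 lies at 0.47, within the bulk of genes, and Mt2 at 2.62, in the upper tail.

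The make-up of the metallothionein counts in the precipitate differed between the groups, with a smaller share of Mt3 after injury. Mt3 held 87.8% of the 238 metallothionein counts without injury (83.0% to 91.7%) and 73.9% of 714 with injury (70.6% to 77.1%). Mt1 went from 9.24% (5.88% to 13.7%) to 15.1% (12.6% to 18.0%), and Mt2 from 2.94% (1.19% to 5.97%) to 10.9% (8.73% to 13.4%). The intervals of Mt3 and of Mt2 do not overlap between the groups, while those of Mt1 do. Library by library, Mt3 made up 94.3%, 84.8% and 83.3% without injury and 74.0%, 74.8% and 73.1% after injury. Every uninjured library thus had the higher Mt3 share, and the first of them stood apart at the top. These are shares of counts and not of molecules per length of transcript.

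**Figure D3:**
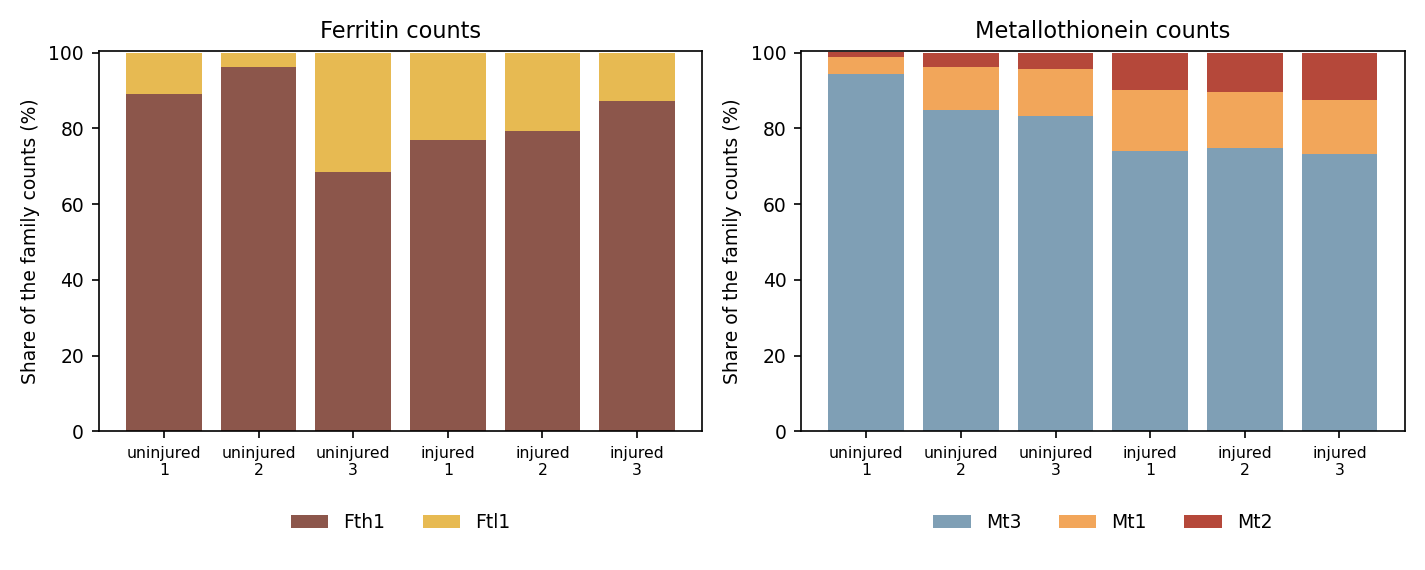
Share of each gene in the ferritin counts (left) and metallothionein counts (right) of each library, in percent, as stacked bars from 0 to 100. Mt3 takes 83.3% to 94.3% of an uninjured and 73.1% to 74.8% of an injured library, whereas the Fth1 shares of the groups overlap.

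The difference between members was measured directly as the change in the ratio of their counts, which needs no scaling, for 9 pairs. Relative to Mt3, Mt2 was 4.41-fold higher after injury (conditional exact interval 1.99 to 11.5) and Mt1 was 1.94-fold higher (1.18 to 3.32). Uninjured libraries had Mt2 to Mt1 ratios of 0.250, 0.333 and 0.333, all below the injured ones at 0.615, 0.714 and 0.853. It was 2.27 times as high after injury, but the interval of 0.878 to 6.59 includes no difference between these neighbouring genes. Across the families, Fth1 was 1.46-fold higher relative to Mt3 (1.06 to 2.01) and Mt2 3.03-fold higher relative to Fth1 (1.32 to 8.10). Ordered by ratio, the members ran Mt2, Ftl1, Mt1, Fth1 and Mt3. Of neighbours in that order, only the last, Fth1 and Mt3, had an interval that excluded no difference. That interval was not recomputed without the third uninjured library, which was low for Fth1 with 13 counts against 33 and 26. Mt2 relative to Ftl1 was 1.95-fold higher after injury (0.642 to 6.26), Ftl1 relative to Mt1 was 1.17-fold higher (0.502 to 2.85) and Mt1 relative to Fth1 was 1.33-fold higher (0.771 to 2.38). The 9 intervals were not widened for their number. In CPM the summed metallothioneins went from 682 (598 to 774) to 1125 (1044 to 1211), a ratio of 1.65 (1.42 to 1.92), of which difference Mt3 made up 52.6%, Mt1 24.2% and Mt2 23.2%.

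The direction of all 5 members held in each of the 14 alternatives to the fit in which the member was tested, while the calls did not. These alternatives reuse all or most of the same counts, and no member's libraries overlapped between the groups. A kept direction was thus likely beforehand and is no independent support. Log2 fold changes ranged from 0.63 to 1.23 for Fth1, from 1.11 to 2.09 for Ftl1, from 1.05 to 1.51 for Mt1, from 2.14 to 2.71 for Mt2 and from 0.29 to 0.53 for Mt3. The calls of Fth1 and Mt3, which passed the filter in the libraries of both groups, were kept in 12 and 11 of the 14 alternatives. In edgeR's exact test on the summed libraries of each group, neither was called with an assumed coefficient of variation of 0.2 between animals, a setting that called 9.66% of genes higher. With an assumed 0.4, which called 1.33% of genes higher, no member was called. Calls of Ftl1, Mt1 and Mt2 are not tallied, since they entered the fit through their injured libraries.

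**Figure D4:**
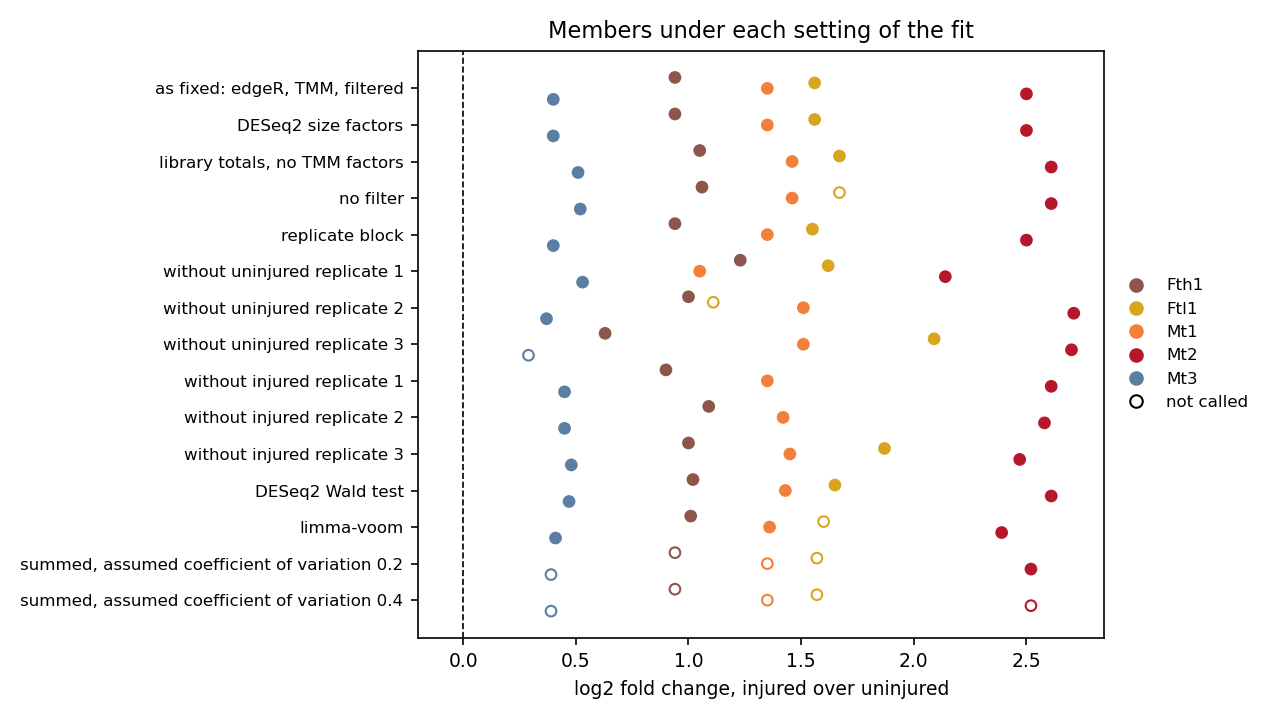
Log2 fold change of each member (injured over uninjured) under each setting of the fit across all genes; filled points passed an adjusted p of 0.05 and open points did not, and a missing point means that the filter removed the gene. All points lie to the right of 0, which was likely beforehand since the settings reuse the same counts. With an assumed coefficient of variation of 0.4 all 5 are open.

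The gene whose levels were closest to those of the most abundant member of each family was sought by the Euclidean distance of log2(CPM + 1) over the 6 libraries. For Fth1 it was ENSMUSG00000021087, at a distance of 0.685, where the median gene with at least 20 counts lay at 6.76. This gene gave 24, 25 and 17 uninjured and 82, 71 and 81 injured counts, with a ratio of CPM of 1.95 (1.48 to 2.60). For Mt3 it was ENSMUSG00000024758, at a distance of 0.429 against a median of 9.69. Its counts were 85, 81 and 73 uninjured and 181, 159 and 171 injured, and its ratio was 1.18 (1.01 to 1.38). Neither identifier was paired with a symbol here, and the distance counts the level of a gene as well as its difference between groups.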

How the data were processed

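The authors deposited a column of estimated counts for each library, not normalized, with genes given by Ensembl identifier. The submitters' processing notes name minimap2, Salmon and the build GRCm39 (mm39), and per the labels' protocols the libraries came from a nanopore cDNA-PCR barcoding kit. Versions, annotation release and filters: not given in the sources used here. All values were whole, so rounding changed none, and 0 columns were left unused. The table pairs no identifier with a symbol; the 5 symbols came with the identifier list that defined the set. Members and lists were chosen with earlier results of these data known, and all 5 members are named whatever their values. The fixed lists of iron, zinc, copper and cell type genes were not analysed here.

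Counts were summed by group and scaled to column totals (CPM). Ratios have Clopper-Pearson intervals on the injured share of counts, and ratios between genes have conditional exact intervals. The fit across all genes used edgeR 4.0.16 (R 4.3.3) with TMM, filterByExpr and Benjamini-Hochberg adjustment, tested on simulated data; alternatives used DESeq2 1.42.0 and limma 3.58.1, other scalings and filters, left-out libraries, thinned injured libraries and assumed spreads. Nothing in the labels says that libraries came from separate animals. Whether replicate numbers pair the libraries was checked by the correlation of their deviations.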

Additional observations from a re-analysis of the deposited data

How the results depend on the processing

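All 50 alternative ratios of CPM stayed above 1 and inside the counting interval of the value reported. All 28 alternative shares stayed inside their intervals. These alternatives reuse all or most of the same counts, and thinning keeps the ratio on average. Staying inside was thus likely beforehand and is no independent support. Leaving out 1 library gave ratios of CPM of 1.65 to 2.49 for Fth1, 2.31 to 4.62 for Ftl1, 2.20 to 3.05 for Mt1, 4.77 to 7.15 for Mt2 and 1.3 to 1.53 for Mt3, and log2 fold changes in the fit of 0.63 to 1.23, 1.11 to 2.09, 1.05 to 1.51, 2.14 to 2.71 and 0.29 to 0.53. Ftl1 also lost its call without a filter (1.67) and with limma-voom (1.6). With libraries summed and an assumed coefficient of variation of 0.2 or 0.4, the log2 fold changes were 0.94 for Fth1, 1.57 for Ftl1, 1.35 for Mt1, 2.52 for Mt2 and 0.39 for Mt3. Fth1, Ftl1, Mt1 and Mt3 were called with neither value. Mt2, which entered the fit through its injured libraries, was not called with 0.4, and its call with 0.2 is a description only. This setting changes the summing, the test and the spread together, and which of them ends the calls was not tested. Those spreads gave 305 higher and 176 lower genes, and 42 and 5, in place of 786 and 699; leaving out 1 library gave 638 to 836 and 582 to 756. Higher calls made up 52.9% of calls under TMM, 60.3% under library totals, 62.0% without a filter and 47.7% under limma-voom. With the replicate block 750 genes were higher and 677 lower, and Fth1 and Mt3 kept their calls. The 3 correlations of deviations between libraries of one number were 0.0389, -0.00625 and -0.0506, so that the numbers were not taken to pair the libraries. Among genes with at least 50 counts, 1067 were past 1.5-fold higher and 700 lower, against 2247 and 1438 with at least 20, because fewer genes enter. Effective library sizes, which are totals after the filter times the TMM factor, shifted every log2 ratio of CPM by -0.07. Depth limits Ftl1 and Mt2 most, with 11 and 7 uninjured counts.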
